A study of Homo sapiens with 6 samples.

Results

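Read-through genes are annotated genes whose transcripts run through the end of an upstream gene and continue into its downstream neighbour on the same strand. They are named after both partners, as in NME1-NME2. In the RNA-seq table of LX-2 cells, 101 rows had a symbol built from the symbols of a pair of other rows, and the 86 of them with at least 10 counts summed over the 6 libraries are described here, of 24789 rows with values in all. The members were thus chosen by their symbols and by their summed counts. The pair just inside the count minimum was KLRC4-KLRK1 with 15 counts and EEF1E1-BLOC1S5 with 12 counts, and the pair just outside it was ZNF511-PRAP1 with 6 counts and HSPB2-C11orf52 with 2 counts. Of the 15 rows under the minimum, 11 had 0 counts in every library.

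LX-2 is a human cell line derived from hepatic stellate cells, which deposit scar matrix in injured liver. The 3 libraries labelled AEBP1 siRNA came from cells given 50 nM of an siRNA against AEBP1 by lipid transfection, and the 3 labelled scrambled siRNA from cells given 50 nM of a scrambled siRNA. RNA was taken after 48 h in both groups, and the labels give the genotype of the line as WT. No label says that libraries of a group stem from separate cultures or transfections, so each p-value reflects only the spread between these libraries, which may be technical.

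A read-through transcript forms when RNA polymerase II does not stop after the upstream gene's polyadenylation site and the splicing machinery then joins an exon of the upstream gene to an exon of the downstream gene. Some such transcripts encode fusion proteins, and many carry an early stop codon that marks them for nonsense-mediated decay, the pathway that degrades such messages. Many of their exons also belong to the partner genes. Reads from a shared exon can be placed on the read-through gene or on a partner, and reads across the joining splice site are among those that tell them apart.

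GENCODE 29, which is built on GRCh38 and not on the hg19 build named in the submitters' processing notes, was used to describe the structure of the 86 genes and for no count. All 86 were matched by gene ID. At least 1 protein-coding transcript was annotated for 55 of them, at least 1 nonsense-mediated decay transcript for 53, and nonsense-mediated decay without any protein-coding transcript for 31. The median number of exonic bases was 2665.5. Bases outside the exons of both partners had a median number of 92.5 and, taken separately, a median share of 2.63%. In 28 genes no exonic base was private to the read-through gene, and in 61 the private share was under 10%. In 85 genes both partners lay on the same chromosome and strand as the read-through gene. The exception was BORCS7-ASMT on chromosome 10, whose downstream symbol matched ASMT on another chromosome, so its summed values do not describe a neighbouring pair.

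For SENP3-EIF4A1, RAB4B-EGLN2 and NEDD8-MDP1, the 3 read-through genes past the adjusted threshold in DESeq2, 1 joining junction each is shown. These junctions hold bases that separate the transcripts from their partners. GENCODE 29 annotated 3 joining junctions for NEDD8-MDP1 and 1 for each of the others. Each line gives the 15 exonic bases before the junction in lower case and the 15 exonic bases after it, 5′ to 3′ on the transcribed strand, from the GENCODE 29 transcript sequences. Capitals mark the bases taken from the downstream side of the joining junction, also where a partner uses them.

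SENP3-EIF4A1 (chromosome 17, plus strand): ctgcaaactcactgtCCAGGGGAATCCTCC
SENP3 at the same donor site: ctgcaaactcactgtgggagtgtggccctg
RAB4B-EGLN2 (chromosome 19, plus strand): gctctgtggagccagCCACCCTGAAGGGTC
RAB4B at the same donor site: gctctgtggagccaggactttgcacctgct
EGLN2 at the same acceptor site: tcgtcctgtctccggCCACCCTGAAGGGTC
NEDD8-MDP1 (chromosome 14, minus strand): cagtggcaagcagatTGATGGAACTGTACG
NEDD8 at the same donor site: cagtggcaagcagatgaatgatgagaagac
MDP1 at the same acceptor site: gttccataagagcagTGATGGAACTGTACG

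At the junction shown, RAB4B-EGLN2 and NEDD8-MDP1 shared the bases on each side with a partner, and only the combination was their own. Both had 0 private exonic bases. SENP3-EIF4A1 shared its donor site with SENP3, while no annotated EIF4A1 transcript used its acceptor site. Its only transcript was of the nonsense-mediated decay class, with 3519 exonic bases of which 422 (11.99%) were private.

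AEBP1, the gene targeted by the siRNA, had 29.7, 27.7 and 48.3 CPM (read counts relative to a library size scaled by TMM) in AEBP1 siRNA-labelled libraries 1, 2 and 3, against 53.6, 48.7 and 25.1 CPM in scrambled-labelled libraries 1, 2 and 3. The library labelled AEBP1 siRNA 3 was thus close to those labelled scrambled siRNA 1 and 2, and the library labelled scrambled siRNA 3 had the lowest value of all 6. The log2 fold change of AEBP1 was -0.27 (SE 0.305, edgeR adjusted p = 0.991). Without the libraries labelled replicate 3 of both groups it was -0.83 (edgeR adjusted p = 0.378). Directions below refer to the labels. Total counts ran between 34433510 and 41600600 in AEBP1 siRNA-labelled libraries and between 41330380 and 49432960 in scrambled-labelled libraries. The library labelled AEBP1 siRNA 1 stood apart on the first principal component, at -46.1 against 1.83 to 12.4 for the others. The 11 stellate cell markers were uneven. Collagen gene COL1A1 averaged 1482 CPM in AEBP1 siRNA-labelled libraries and 1543 CPM in scrambled-labelled libraries, and VIM averaged 1204 and 1131 CPM. COL3A1, PDGFRB, TIMP1 and TAGLN averaged between 27.4 and 158 CPM in AEBP1 siRNA-labelled libraries and between 31.1 and 149 CPM in scrambled-labelled libraries. COL1A2 averaged 4.49 and 3.91 CPM and ACTA2 4.19 and 3.85 CPM, in the same order. DES and GFAP reached at most 0.183 and 0.388 CPM in a library. LRAT, a marker of quiescent stellate cells, had 0 counts in all 6 libraries. Of the markers of other cell types, the hepatocyte list summed to between 5.77 and 7.75 CPM in AEBP1 siRNA-labelled libraries and between 4.97 and 9.23 CPM in scrambled-labelled libraries, of which SERPINA1, at 6.41 CPM in AEBP1 siRNA-labelled and 6.86 CPM in scrambled-labelled libraries, made up most, while APOB and TTR had 0 counts. KRT7 of the epithelial list averaged 16.0 CPM in AEBP1 siRNA-labelled and 16.3 CPM in scrambled-labelled libraries, while EPCAM, KRT19 and CDH1 reached at most 0.121, 0.0730 and 0.144 CPM in a library. CD68 of the leukocyte and macrophage list lay between 17.3 and 23.4 CPM over the 6 libraries. On that list CD14, PTPRC and ITGAM reached at most 2.70, 0.146 and 0.536 CPM, and MARCO had 0 counts. The endothelial list summed to between 0.489 and 0.896 CPM in AEBP1 siRNA-labelled libraries and between 0.342 and 0.569 CPM in scrambled-labelled libraries.

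The 86 read-through genes together took 0.116% ± 0.00813 of all counts in AEBP1 siRNA-labelled libraries and 0.0914% ± 0.00571 in scrambled-labelled libraries (SD, n = 3 each). Without SENP3-EIF4A1 the share was 0.0931% ± 0.00974 in AEBP1 siRNA-labelled libraries and 0.0900% ± 0.00585 in scrambled-labelled libraries. Summed counts per gene ran between 12 and 57719, and 38 genes had over 1000 counts. The median gene had a mean of 2.75 CPM over the 6 libraries. As a share of the counts of its own locus, that is, of itself plus both partners, the median read-through gene held 4.10%. The share was under 1% in 24 genes and over 10% in 30, among the 84 with counts at the locus in every library.

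**Figure D1:**
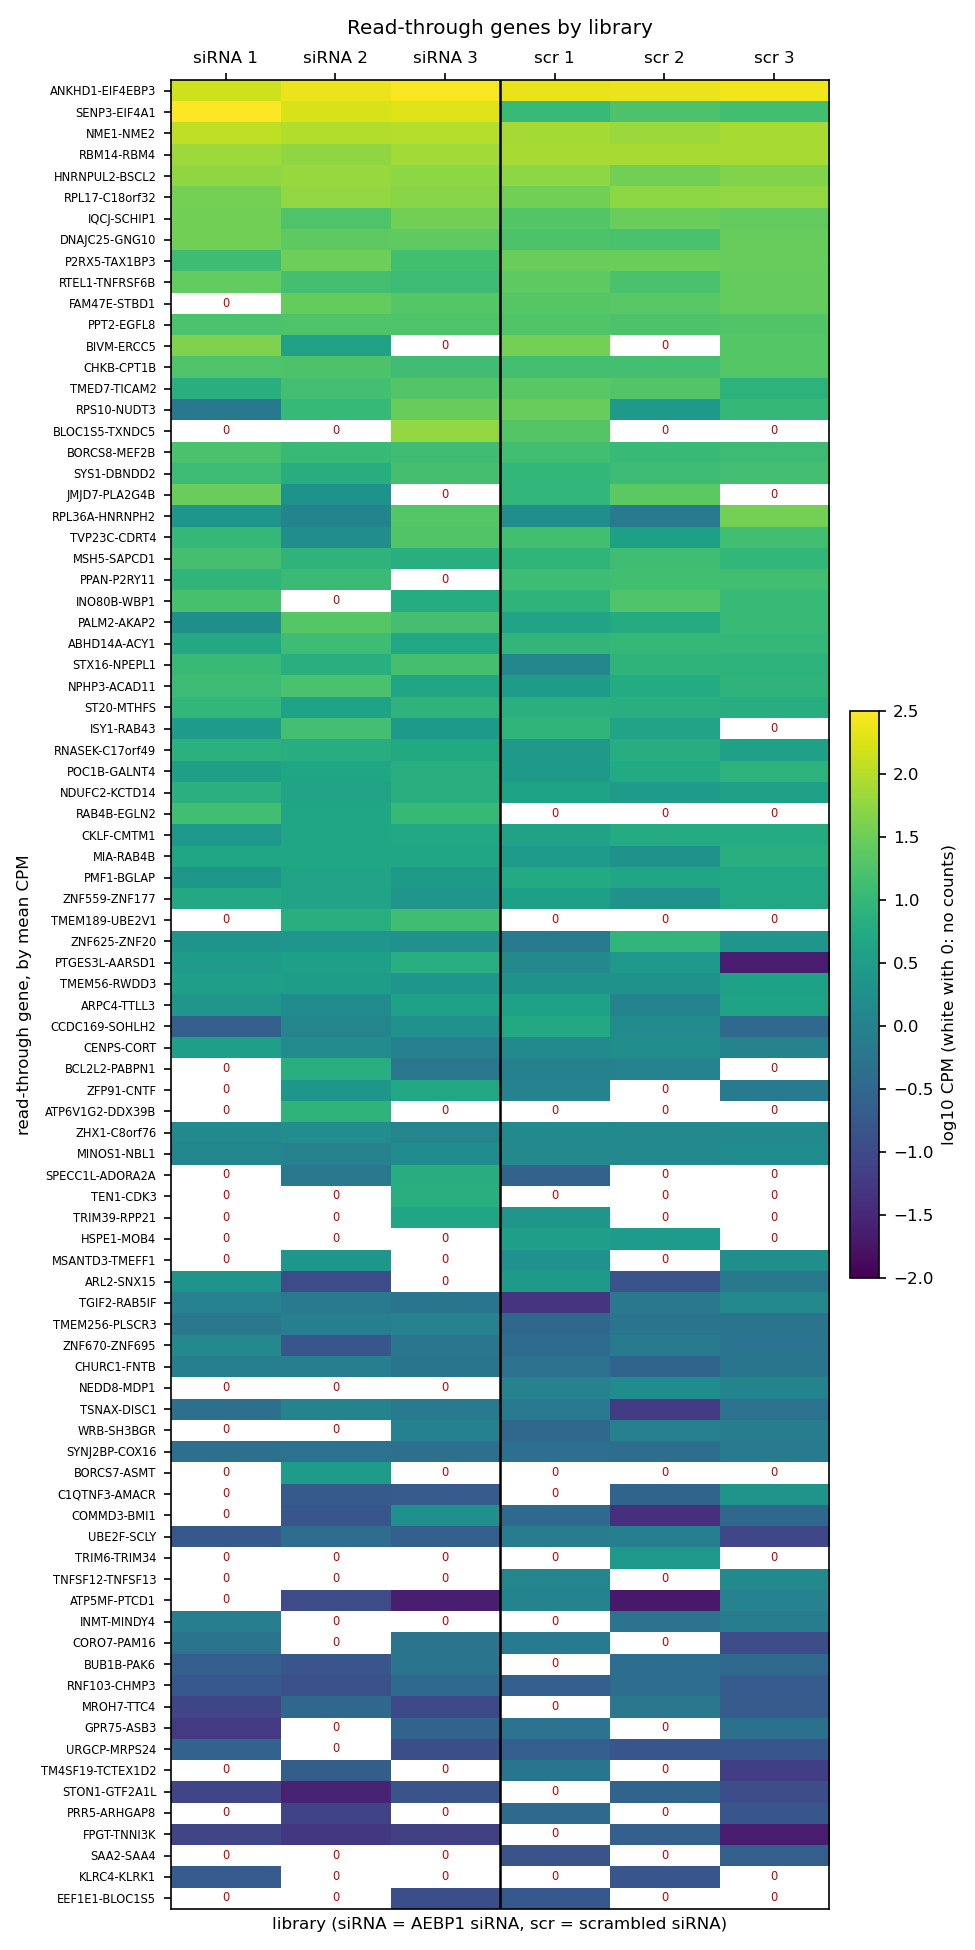
Level of each of the 86 read-through genes (rows, ordered by mean CPM) in each of the 6 libraries (columns, those labelled AEBP1 siRNA left of the line), as log10 CPM; white cells marked 0 had no counts. 39 genes had 0 counts in at least 1 library, and these zeros fell in libraries of both groups.

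Of the 65 read-through genes that passed the filter on low counts, 1 changed between the labelled groups at an adjusted p under 0.05. The test was edgeR's quasi-likelihood test, and the gene was the only row called of the 16250 tested (0.00615%). That gene was SENP3-EIF4A1, which rose in AEBP1 siRNA-labelled libraries. By DESeq2, 3 read-through genes were called, of 6 rows called in all (0.0277% of all rows). By limma-voom 2 were called (0.0123%) and by edgeR with no filter 3 (0.0138%), in each case all the rows called. At an unadjusted p under 0.05 there were 9 read-through genes, against 1.33% of all rows. Of the 9, 6 had higher values in AEBP1 siRNA-labelled libraries (0.732% of all rows) and 3 had lower values (0.597% of all rows). The labelled groups did not overlap for 11 of the 65, against 5.93% of all rows. The median log2 fold change of the 65 was -0.02, and that of all rows tested was -0.0023. The filter kept RAB4B-EGLN2 and NEDD8-MDP1 only through the group in which they had counts, so these shares describe the members that passed and not all 86.

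SENP3-EIF4A1 joins SENP3, a protease that removes SUMO2 and SUMO3 from nucleolar proteins, to EIF4A1, the RNA helicase that unwinds mRNA leaders for translation initiation. It had 11653, 6407 and 7882 counts in AEBP1 siRNA-labelled libraries 1, 2 and 3, against 469, 851 and 602 counts in scrambled-labelled libraries 1, 2 and 3. Every library labelled AEBP1 siRNA lay above every library labelled scrambled siRNA. This held for the library labelled AEBP1 siRNA 3, in which AEBP1 itself was high. It also held for the library labelled scrambled siRNA 3, in which AEBP1 was lowest (25.1 CPM). Its log2 fold change of 4.03 had an SE of 0.296 and a 95% interval of 3.36 to 4.71 (edgeR adjusted p = 0.0105). In bulk RNA, fewer cells with a transcript and less of the transcript per cell cannot be told apart.

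Both partners had lower values where the read-through gene was high. SENP3 had 1704, 1814 and 2034 counts in AEBP1 siRNA-labelled libraries, against 3074, 3744 and 3292 counts in scrambled-labelled libraries. EIF4A1 had 11997, 13568 and 12785 counts in AEBP1 siRNA-labelled libraries, against 19327, 22682 and 21209 counts in scrambled-labelled libraries. Neither partner's groups overlapped. The log2 fold change was -0.63 (SE 0.0822) for SENP3 and -0.48 (SE 0.0971) for EIF4A1. For SENP3 the adjusted p was 0.225 in edgeR and 1.46e-05 in DESeq2, and for EIF4A1 it was 0.991 in edgeR and 0.0454 in DESeq2, so that of these tools only DESeq2 placed them past the threshold. Limma-voom gave SENP3 an adjusted p of 0.331, and the highest over the alternative fits was 0.99994 for either gene. Without the replicates 3 of both labels the edgeR adjusted p was 0.442 for SENP3 and 0.941 for EIF4A1.

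The difference between group means, AEBP1 siRNA minus scrambled siRNA, was 218 CPM for SENP3-EIF4A1, -26.5 CPM for SENP3 and -133 CPM for EIF4A1. The summed locus had 729, 579 and 550 CPM in AEBP1 siRNA-labelled libraries, against 557, 554 and 573 CPM in scrambled-labelled libraries. These groups overlapped, and the log2 fold change of the sum was 0.14 (SE 0.122, edgeR adjusted p = 0.991). The read-through gene held 36.7% ± 8.45 of the locus counts in AEBP1 siRNA-labelled libraries and 2.52% ± 0.545 in scrambled-labelled libraries (SD, n = 3 each, two-sided exact permutation p = 0.1, the smallest that 3 libraries against 3 allow). From the authors' FPKM (fragments per kilobase and library size), which divide by length, the share was 20.7% ± 3.86 in AEBP1 siRNA-labelled libraries and 1.12% ± 0.156 in scrambled-labelled libraries. Per length, SENP3-EIF4A1 averaged 59.0 FPKM in AEBP1 siRNA-labelled libraries, below the 203 FPKM of EIF4A1 and above the 16.9 FPKM of SENP3. In those labelled scrambled siRNA it averaged 3.56 FPKM, below the 287 FPKM of EIF4A1 and the 25.7 FPKM of SENP3.

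SENP3-EIF4A1 no longer passed the threshold when any single library labelled scrambled siRNA was left out, with an edgeR adjusted p of 0.126 without scrambled siRNA 1, 0.0655 without scrambled siRNA 2 and 0.0929 without scrambled siRNA 3, and of 0.195 when the replicates 3 of both groups were left out. The log2 fold change stayed between 3.67 and 4.21 in every one of these fits and in those without a library labelled AEBP1 siRNA.

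RAB4B-EGLN2 joins RAB4B, a small GTPase of recycling endosomes, to EGLN2, a prolyl hydroxylase that marks hypoxia-inducible factors for destruction. It had 469, 165 and 429 counts in AEBP1 siRNA-labelled libraries and 0 in each labelled scrambled siRNA. Taking 3 counts over the whole group as the floor, its counts relative to library size were at least 418-fold higher in AEBP1 siRNA-labelled libraries. This floor covers counting error only. Within the AEBP1 siRNA label, BLOC1S5-TXNDC5 ran between 0 and 2480 counts. The floor also does not cover how reads from shared exons were placed, and RAB4B-EGLN2 had 0 private exonic bases. The edgeR adjusted p was 0.107, and over the alternative fits it ran between 3.63e-15 (DESeq2) and 0.331 (limma-voom), with 0.254 in edgeR without the replicates 3 of both labels.

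RAB4B had 446, 539 and 370 counts in AEBP1 siRNA-labelled libraries, against 617, 883 and 599 counts in scrambled-labelled libraries. In CPM its groups overlapped, with a mean of 12.0 ± 2.77 in AEBP1 siRNA-labelled libraries and 15.5 ± 2.18 in scrambled-labelled libraries (SD, n = 3 each). EGLN2 averaged 88.0 ± 8.75 CPM in AEBP1 siRNA-labelled libraries and 83.4 ± 5.85 CPM in scrambled-labelled libraries. The 3 genes summed to 109 ± 12.8 CPM in AEBP1 siRNA-labelled libraries and 98.9 ± 4.19 CPM in scrambled-labelled libraries (two-sided exact permutation p = 0.2). RAB4B is also the downstream partner of MIA-RAB4B, which this sum leaves out. MIA-RAB4B had 157, 168 and 186 counts in AEBP1 siRNA-labelled libraries, against 123, 102 and 302 counts in scrambled-labelled libraries. With both loci merged, the log2 fold change of the sum was 0.15 (SE 0.111, edgeR adjusted p = 0.991).

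NEDD8-MDP1 joins NEDD8, a ubiquitin-like protein that activates cullin ligases, to MDP1, a magnesium-dependent phosphatase. It ran the other way, with 0 counts in each library labelled AEBP1 siRNA and 41, 75 and 47 counts in scrambled-labelled libraries. With the same floor and its limits, the counts relative to library size were at least 46.0-fold lower in AEBP1 siRNA-labelled libraries. The adjusted p was 0.225 in edgeR, 1.46e-05 in DESeq2 and 0.0202 in limma-voom. Over all alternative fits the adjusted p ran between 1.46e-05 and 0.999, with 0.324 in edgeR without the replicates 3 of both labels. It held 1.10% ± 0.364 of its locus counts in scrambled-labelled libraries. NEDD8 averaged 120 ± 26.1 CPM in AEBP1 siRNA-labelled libraries and 105 ± 10.1 CPM in scrambled-labelled libraries, and MDP1 averaged 6.17 ± 1.25 CPM in AEBP1 siRNA-labelled libraries and 5.07 ± 0.562 CPM in scrambled-labelled libraries. Both partners' groups overlapped.

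**Figure D2:**
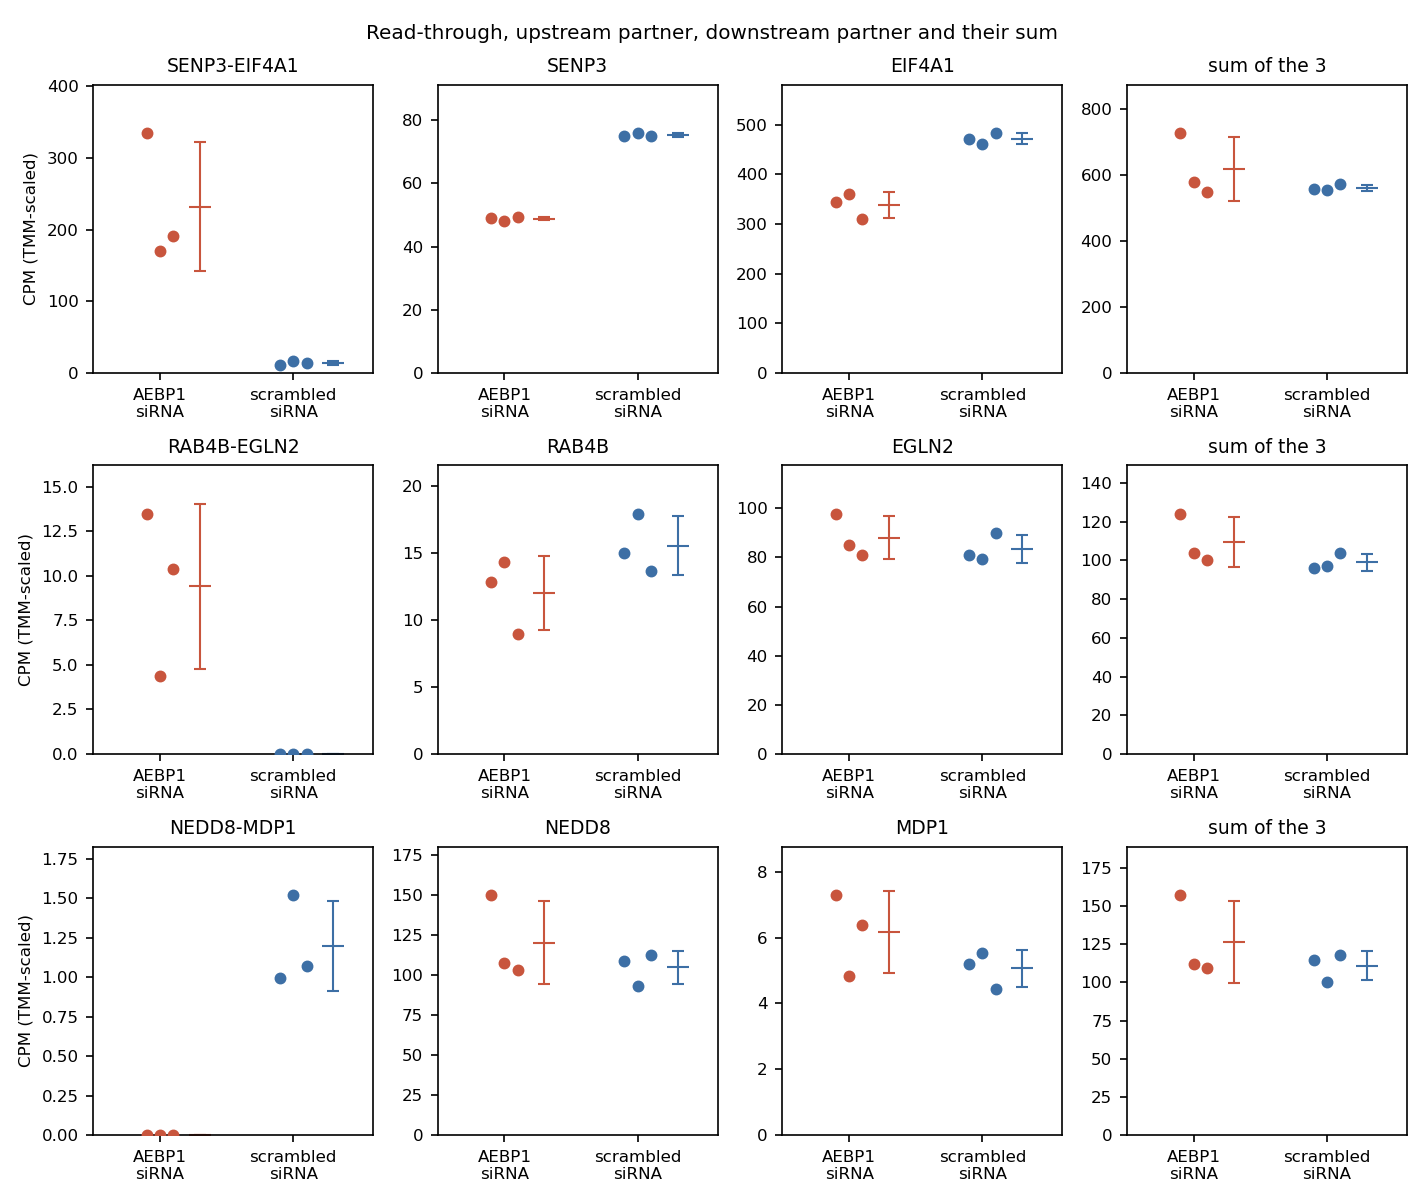
CPM of SENP3-EIF4A1, RAB4B-EGLN2 and NEDD8-MDP1 (left column), of their upstream and downstream partners and of the sum of the 3 genes (right column), with a point for each library and the mean ± SD of each labelled group (n = 3). The groups of the read-through genes and of SENP3 and EIF4A1 do not overlap, and the groups of every sum do.

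The other 6 read-through genes with an unadjusted p under 0.05 each had an edgeR adjusted p of 0.991. NME1-NME2, which joins a pair of nucleoside diphosphate kinase genes, had 117, 96.6 and 97.8 CPM in AEBP1 siRNA-labelled libraries, against 77.7, 66.8 and 82.5 CPM in scrambled-labelled libraries. The groups did not overlap (log2 fold change 0.46, SE 0.121). Its partners had higher levels and overlapping groups, with a mean of 122 CPM in AEBP1 siRNA and 113 CPM in scrambled siRNA for NME1, and of 400.0 CPM in AEBP1 siRNA and 373 CPM in scrambled siRNA for NME2. RBM14-RBM4, which joins genes of a paraspeckle protein and a splicing regulator, had 67.9, 56.6 and 74.1 CPM in AEBP1 siRNA-labelled libraries, against 80.9, 81.2 and 83.0 CPM in scrambled-labelled libraries (log2 fold change -0.30, SE 0.114). It held 23.1% ± 2.61 of its locus in AEBP1 siRNA-labelled libraries and 29.2% ± 2.46 in scrambled-labelled libraries, and the summed locus had a log2 fold change of 0.03 (SE 0.107). HNRNPUL2-BSCL2, whose downstream partner BSCL2 encodes the lipid droplet protein seipin, averaged 58.5 ± 5.47 CPM in AEBP1 siRNA-labelled libraries and 44.5 ± 9.43 CPM in scrambled-labelled libraries. NDUFC2-KCTD14, whose upstream partner encodes a subunit of respiratory complex I, averaged 5.99 ± 1.48 CPM in AEBP1 siRNA-labelled libraries and 3.64 ± 0.555 CPM in scrambled-labelled libraries. PMF1-BGLAP, which joins a kinetochore gene to the osteocalcin gene, averaged 3.16 ± 0.922 CPM in AEBP1 siRNA-labelled libraries and 4.96 ± 0.660 CPM in scrambled-labelled libraries. SPECC1L-ADORA2A, whose downstream partner is an adenosine receptor gene, had 0, 24 and 268 counts in AEBP1 siRNA-labelled libraries against 11, 0 and 0 counts in scrambled-labelled libraries. Its groups overlapped, and 1 library held most of its counts.

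The read-through genes differed far more between libraries of the same label than their partners or loci did. Of the 86, 56 had at least 100 counts in at least 1 library, and 19 of these 56 (33.9%) had 0 counts in another library. For partner genes this was so in 0 of 147, and for the other annotated genes in 24 of 12009 (0.200%). Both limits were chosen after the values had been seen. In 17 of the 19, a library at 0 and a library of at least 100 counts carried the same label, and the exceptions were RAB4B-EGLN2 and ARL2-SNX15.

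Among the 57 read-through genes with at least 200 counts, the median coefficient of variation between libraries of the same label was 48.1% for the read-through gene, 13.2% for the upstream partner, 17.6% for the downstream partner and 10.7% for the sum of the 3. Over all rows tested the median was 14.3%. Each coefficient is the SD within a label, pooled over both labels, divided by the mean of all 6 libraries. It is therefore not the value within either label alone where the label means differ. The sum varied less than the read-through gene at 55 of the 57 loci, with NME1-NME2 and PPT2-EGFL8 as the exceptions. These values are a description, since read-through gene, partners and sum come from the same reads. They were also not matched for level, and the median read-through gene held 4.10% of its locus counts. How much of the difference in spread came with the lower counts was not tested.

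**Figure D3:**
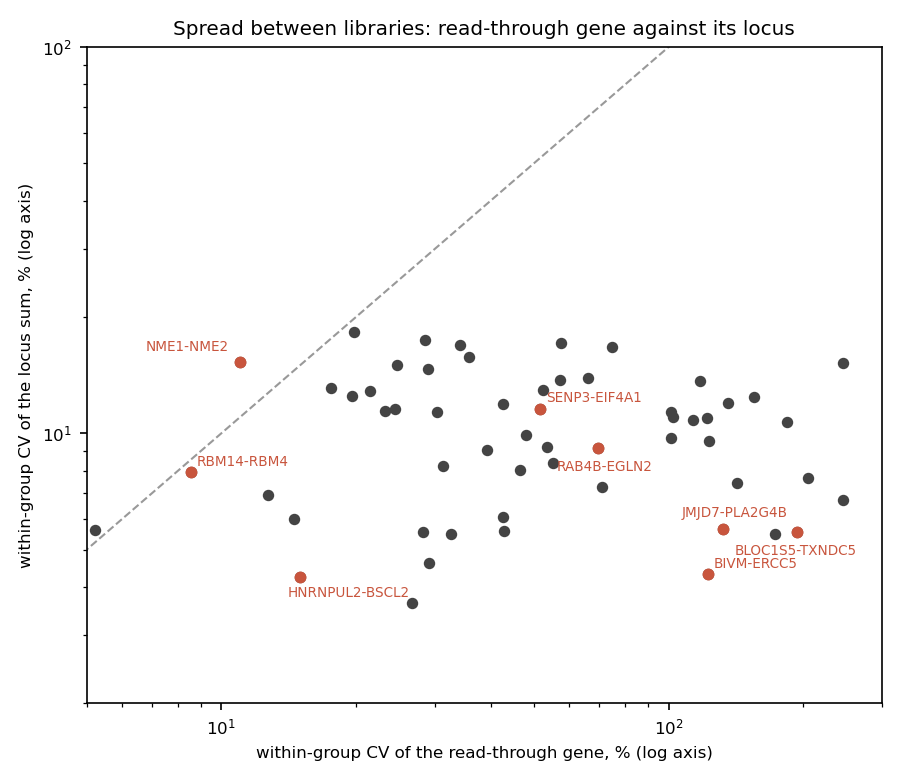
Coefficient of variation between libraries of the same label (%, SD pooled over both groups, divided by the mean of all 6 libraries, log axes). It is shown for each of the 57 read-through genes with at least 200 counts (horizontal axis) and for the sum of the gene and its partners (vertical axis). The dashed line marks equal values and named genes are in red. Points lie below the line at 55 of 57 loci, with a median of 48.1% for the read-through genes and 10.7% for the sums.

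The 6 read-through genes with the largest ratio between libraries of 1 label, among those with at least 200 counts, were BLOC1S5-TXNDC5, BIVM-ERCC5, JMJD7-PLA2G4B, FAM47E-STBD1, INO80B-WBP1 and PPAN-P2RY11. For 3 of them, 1 joining junction each is shown beside the partner that shares the acceptor side. In these lines the bases in capitals belong to both genes, and only the lower-case side differs. The donor site was also used by the upstream partner in all 3 shown. This was not so at the first-ranked joining junctions of PPAN-P2RY11 and INO80B-WBP1, and BIVM-ERCC5 had 0 joining junctions. Over the whole gene, JMJD7-PLA2G4B had 2924 private exonic bases (37.19%), FAM47E-STBD1 159 (4.9%) and BLOC1S5-TXNDC5 0. The annotated joining junctions were 2 for JMJD7-PLA2G4B, 3 for FAM47E-STBD1 and 1 for BLOC1S5-TXNDC5.

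BLOC1S5-TXNDC5 (chromosome 6, minus strand): caggaacgaaaaaagGTGTGGACACTGCCA
TXNDC5 at the same acceptor site: gttcttcgcgccctgGTGTGGACACTGCCA
JMJD7-PLA2G4B (chromosome 15, plus strand): gaggccatggagaagGCAGAGGTGTCCAGG
PLA2G4B at the same acceptor site: agtctcatggctgtgGCAGAGGTGTCCAGG
FAM47E-STBD1 (chromosome 4, plus strand): gagctgcaggaacagAGCATCTTCAAGAAA
STBD1 at the same acceptor site: tggtcaccaaaccagAGCATCTTCAAGAAA

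BIVM-ERCC5 joins BIVM to ERCC5, the XPG endonuclease of nucleotide excision repair, and had 0 private exonic bases. It had 1480, 150 and 0 counts in AEBP1 siRNA-labelled libraries 1, 2 and 3, against 1472, 0 and 888 counts in scrambled-labelled libraries 1, 2 and 3. ERCC5 had 158, 1287 and 1395 counts in AEBP1 siRNA-labelled libraries, against 429, 1665 and 982 counts in scrambled-labelled libraries. ERCC5 was lowest in AEBP1 siRNA-labelled libraries 1 and scrambled siRNA 1, where BIVM-ERCC5 was highest. BIVM had 556, 1027 and 1160 counts in AEBP1 siRNA-labelled libraries, against 934, 1398 and 952 counts in scrambled-labelled libraries. The sum of the 3 was 63.5 ± 1.84 CPM in AEBP1 siRNA-labelled libraries and 65.2 ± 3.47 CPM in scrambled-labelled libraries (SD, n = 3 each), a coefficient of variation of 4.32% against 122% for the read-through gene.

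JMJD7-PLA2G4B joins JMJD7, a lysyl hydroxylase gene, to PLA2G4B, a cytosolic phospholipase A2 gene. It had 1011, 78 and 0 counts in AEBP1 siRNA-labelled libraries, against 393, 1161 and 0 counts in scrambled-labelled libraries. PLA2G4B had 136, 780 and 878 counts in AEBP1 siRNA-labelled libraries, against 488, 144 and 937 counts in scrambled-labelled libraries. JMJD7 had 215, 536 and 686 counts in AEBP1 siRNA-labelled libraries, against 469, 433 and 743 counts in scrambled-labelled libraries. Both partners were highest in the libraries in which the read-through gene had 0 counts. The sum was 38.0 ± 1.07 CPM in AEBP1 siRNA-labelled libraries and 35.5 ± 2.74 CPM in scrambled-labelled libraries.

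FAM47E-STBD1 joins FAM47E to STBD1, a glycogen-binding protein of the endoplasmic reticulum. It had 0, 1029 and 851 counts in AEBP1 siRNA-labelled libraries, against 854, 1112 and 1195 counts in scrambled-labelled libraries. STBD1 had 1691, 614 and 674 counts in AEBP1 siRNA-labelled libraries, against 896, 752 and 924 counts in scrambled-labelled libraries. The library without counts for FAM47E-STBD1 was the highest for STBD1, and it is also the library that stood apart on the first principal component. FAM47E itself had at most 14 counts in a library. The sum was 43.2 ± 5.88 CPM in AEBP1 siRNA-labelled libraries and 43.2 ± 5.27 CPM in scrambled-labelled libraries, and its log2 fold change had a 95% interval of -0.31 to 0.31.

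BLOC1S5-TXNDC5 joins a gene of lysosome-related organelle biogenesis to TXNDC5, a disulfide isomerase of the endoplasmic reticulum. It had 0, 0 and 2480 counts in AEBP1 siRNA-labelled libraries, against 827, 0 and 0 counts in scrambled-labelled libraries. TXNDC5 had 208, 181 and 135 CPM in AEBP1 siRNA-labelled libraries, against 187, 196 and 182 CPM in scrambled-labelled libraries, and its lowest value lay in the library where the read-through gene was highest. The sum of the 3 was 215 ± 12.0 CPM in AEBP1 siRNA-labelled libraries and 215 ± 11.9 CPM in scrambled-labelled libraries. With counts in a single library of each group, the gene did not pass the filter on low counts and was not tested.

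PPAN-P2RY11 joins PPAN, a ribosome biogenesis gene, to P2RY11, a purinergic receptor gene. It had 305, 435 and 0 counts in AEBP1 siRNA-labelled libraries, against 510, 684 and 590 counts in scrambled-labelled libraries. P2RY11 had 357, 125 and 530 counts in AEBP1 siRNA-labelled libraries, against 137, 189 and 203 counts in scrambled-labelled libraries, and was highest where the read-through gene had 0. In CPM the groups of the read-through gene did not overlap, but its log2 fold change was -0.97 with an SE of 1.03 (edgeR adjusted p = 0.991). The sum was 48.6 ± 3.43 CPM in AEBP1 siRNA-labelled libraries and 45.1 ± 1.39 CPM in scrambled-labelled libraries.

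INO80B-WBP1, whose upstream partner encodes a subunit of the INO80 chromatin remodeller, had 533, 0 and 251 counts in AEBP1 siRNA-labelled libraries, against 354, 899 and 480 counts in scrambled-labelled libraries. INO80B had 331, 546 and 406 counts in AEBP1 siRNA-labelled libraries, against 435, 240 and 344 counts in scrambled-labelled libraries. INO80B was highest in the library with 0 counts for the read-through gene and lowest in the library with 899. WBP1, the larger partner, had between 1865 and 2554 counts in AEBP1 siRNA-labelled libraries and between 2004 and 2586 in scrambled-labelled libraries. Its 1865 counts lay in the library with 0 counts for the read-through gene. The sum of the 3 was 77.2 ± 12.8 CPM in AEBP1 siRNA-labelled libraries and 72.9 ± 7.38 CPM in scrambled-labelled libraries. It was lowest in that same library, at 64.1 CPM, close to the 64.5 CPM of the library labelled scrambled siRNA 3.

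**Figure D4:**
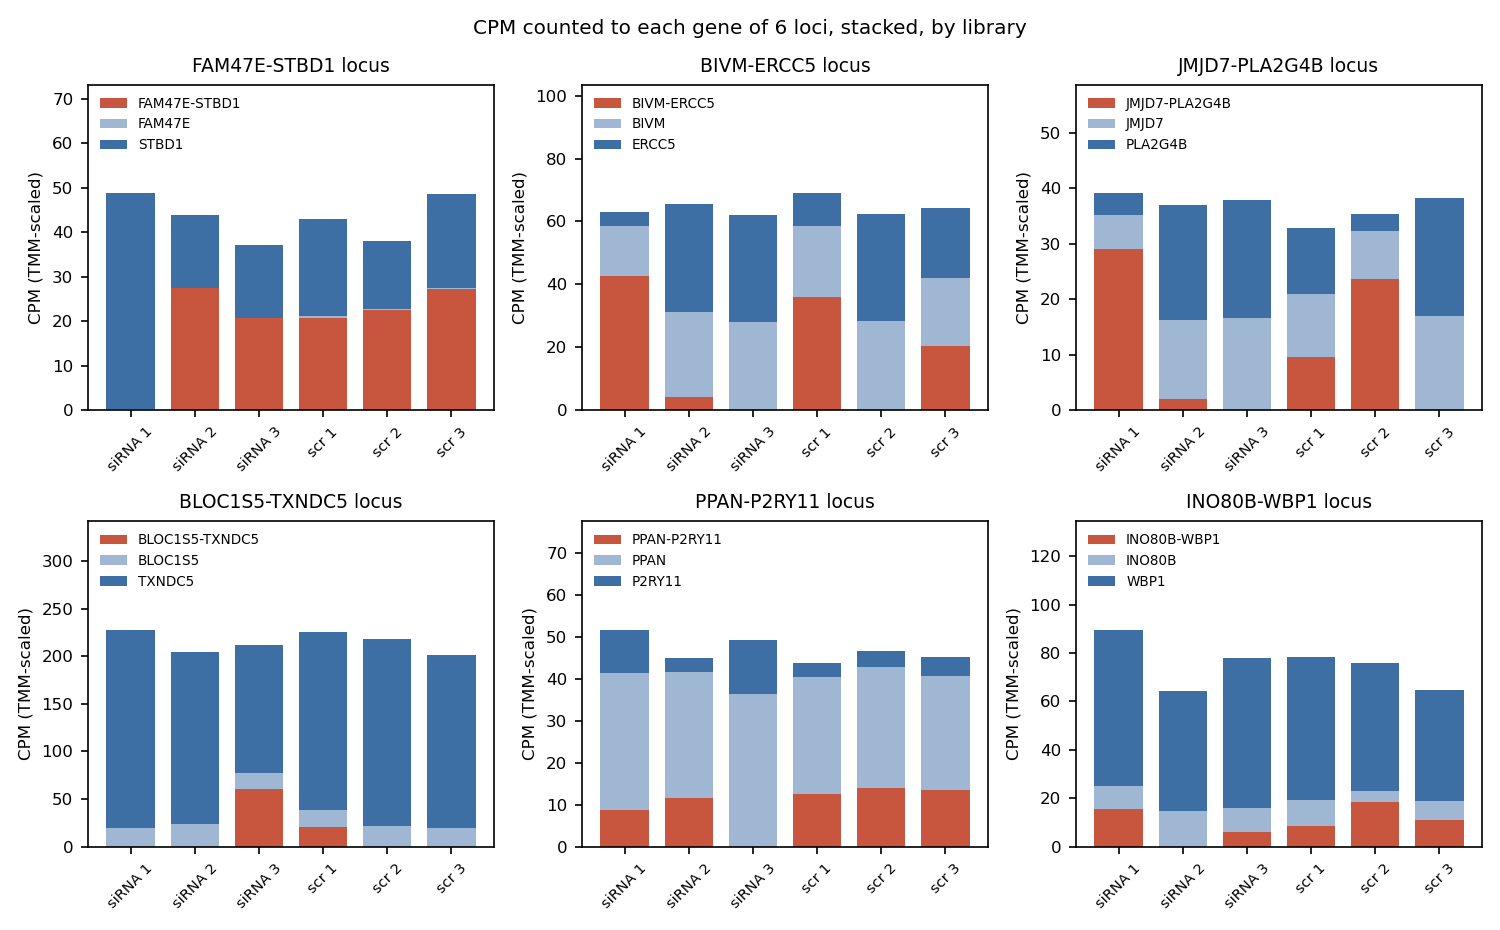
CPM counted to the read-through gene (red), the upstream partner (light blue) and the downstream partner (dark blue), stacked, in each library (those labelled AEBP1 siRNA at the left of each panel) at the 6 loci with the largest ratios within a labelled group. The red part is absent in at least 1 library at every locus, while the height of the bars has a coefficient of variation between 4.32% and 13.9%.

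A few further read-through genes were picked after their values had been seen. TEN1-CDK3 had 287 counts in the library labelled AEBP1 siRNA 3 and 0 in the other 5. In that library TEN1, a telomere maintenance gene, and CDK3, a kinase gene, had 118 and 98 counts, the lowest of the 6. TRIM6-TRIM34 had 125 counts in the library labelled scrambled siRNA 2 and 0 elsewhere, and TRIM34 had 0 counts in that library and between 48 and 70 in the others. RPL36A-HNRNPH2, which had counts in every library, was high in the replicates 3 of both labels, with 80, 40 and 841 counts in AEBP1 siRNA-labelled libraries and 72, 37 and 1562 counts in scrambled-labelled libraries.

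Among the read-through genes with the highest mean levels or the highest shares of their loci, the following had counts in every library. ANKHD1-EIF4EBP3, which joins an ankyrin repeat gene to the gene of a translation repressor that binds eIF4E, had the highest level, with 150, 235 and 286 CPM in AEBP1 siRNA-labelled libraries, against 222, 238 and 251 CPM in scrambled-labelled libraries. It held 68.1% ± 9.62 of its locus in AEBP1 siRNA-labelled libraries and 66.2% ± 1.94 in scrambled-labelled libraries, and EIF4EBP3 itself had at most 12 counts in a library. The groups of ANKHD1-EIF4EBP3 overlapped. Its lowest value lay in the library labelled AEBP1 siRNA 1, which stood apart from the rest. RPL17-C18orf32, whose upstream partner encodes a protein of the large ribosomal subunit, averaged 48.4 ± 12.0 CPM in AEBP1 siRNA-labelled libraries and 49.3 ± 12.2 CPM in scrambled-labelled libraries. DNAJC25-GNG10, whose downstream partner encodes a G protein gamma subunit, averaged 28.2 ± 5.34 CPM in AEBP1 siRNA-labelled libraries and 20.8 ± 6.56 CPM in scrambled-labelled libraries. Both had overlapping groups.

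IQCJ-SCHIP1 held the largest share of its locus, 84.7% ± 24.8 in AEBP1 siRNA-labelled libraries and 88.4% ± 17.3 in scrambled-labelled libraries. IQCJ had 0 counts in every library. IQCJ-SCHIP1 had 1222, 684 and 1454 counts in AEBP1 siRNA-labelled libraries, against 821, 1448 and 1145 counts in scrambled-labelled libraries. SCHIP1, which encodes a partner of the neurofibromatosis protein schwannomin, had 8, 535 and 18 counts in AEBP1 siRNA-labelled libraries, against 379, 19 and 22 counts in scrambled-labelled libraries. SCHIP1 was thus high only in the library of each label in which the read-through gene was lowest. The sum of the locus was 34.5 ± 1.80 CPM in AEBP1 siRNA-labelled libraries and 28.6 ± 1.69 CPM in scrambled-labelled libraries, and these groups did not overlap. BORCS8-MEF2B, which joins a lysosome-positioning gene to a transcription factor gene, had 15.9, 11.3 and 13.4 CPM in AEBP1 siRNA-labelled libraries, against 13.8, 11.1 and 12.2 CPM in scrambled-labelled libraries. It held 40.4% ± 3.89 of its locus in AEBP1 siRNA-labelled libraries and 39.2% ± 4.84 in scrambled-labelled libraries. At the low end, KLRC4-KLRK1 had counts where both partners, natural killer cell receptor genes, had 0 in all 6 libraries, and EEF1E1-BLOC1S5 held 0.0724% of its locus.

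None of the partner genes and none of the summed loci changed at an adjusted p under 0.05 in edgeR. Of the 154 partner genes tested, 6 had an unadjusted p under 0.05, against 1.33% of all rows. DESeq2 called 2 partner genes, SENP3 and EIF4A1, against 0.0277% of all rows, and limma-voom called 0. With loci that share a gene merged, 84 loci remained, of which 83 were tested among 16114 rows. At the adjusted threshold 0 of the 83 were called, against 0.0% of all rows, and 0 were called by DESeq2 and by limma-voom. At an unadjusted p under 0.05 there was 1, IQCJ-SCHIP1 (log2 fold change 0.27, SE 0.103, edgeR adjusted p = 0.991), against 1.26% of all rows. The log2 fold changes of the 83 sums had a median of 0.04 and ran between -1.34 and 0.27, the lowest being that of SAA2-SAA4, an acute phase locus with a mean of 0.225 CPM.

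The genes that end transcripts and those that degrade transcripts with early stop codons were compared as fixed lists, chosen for their roles. No member of any list was called by edgeR, DESeq2 or limma-voom, against 0.00615%, 0.0277% and 0.0123% of all rows. Of the 52 tested, 0 had an unadjusted p under 0.05 in edgeR, against 1.33% of all rows. With so few genes, these counts cannot tell the lists from all rows. The median log2 fold change of all rows tested was -0.0023. Of the 20 cleavage and polyadenylation genes, 7 had a log2 fold change above 0 and 13 below, with a median of -0.03. PAPOLG, a poly(A) polymerase, averaged 53.8 ± 9.52 CPM in AEBP1 siRNA-labelled libraries and 61.2 ± 2.85 CPM in scrambled-labelled libraries. Of the 14 termination genes, 4 were above 0 and 10 below, with a median of -0.07. SSU72, a phosphatase of the polymerase tail, averaged 94.7 ± 17.8 CPM in AEBP1 siRNA-labelled libraries and 83.7 ± 5.28 CPM in scrambled-labelled libraries. All 3 genes of the U1 small nuclear ribonucleoprotein, which protects transcripts from early polyadenylation, were above 0, with a median of 0.11. SNRNP70 averaged 175 ± 8.18 CPM in AEBP1 siRNA-labelled libraries and 162 ± 9.80 CPM in scrambled-labelled libraries. Of the 15 nonsense-mediated decay genes, 9 were above 0 and 6 below, with a median of 0.01. UPF3B, which links exon junctions to decay, averaged 151 ± 11.7 CPM in AEBP1 siRNA-labelled libraries and 133 ± 8.24 CPM in scrambled-labelled libraries. The smallest edgeR adjusted p among the 52 was 0.991.

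The read-through genes share exons with their partners, and no label or header names the program that counted the reads. How it placed reads from shared exons was not tested, so the levels of read-through genes and partners are uncertain when taken singly.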

How the data were processed

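RNA-seq of 6 LX-2 libraries was used, 3 labelled AEBP1 siRNA and 3 labelled scrambled siRNA. The authors deposited a table of raw counts and of FPKM per gene, per the file headers. The submitters' processing notes name the build hg19. Aligner, counting program, annotation and strand setting: not given in the sources used here. The deposited FPKM per CPM differed between libraries by up to 1.35 times for EIF4A1, so the length behind an FPKM was not fixed. The table held 24789 rows with values; 17 lines without values were left out and 27 symbols turned into dates were restored by gene ID. Total counts ran between 34433510 and 49432960; floors of 3 counts cover counting error only.

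Counts were tested on the whole table with edgeR 4.0.16 (filterByExpr, TMM, quasi-likelihood test, labelled group only) in R 4.3.3, with Benjamini-Hochberg adjustment over 16250 rows and a threshold of 0.05. DESeq2 1.42.0 and limma 3.58.1 (voom) were alternatives. Each locus was also summed to 1 row, loci sharing a gene merged, and the table was fitted again. Shares and sums were compared by exact permutation tests (SciPy 1.17.1). Structure and junction sequences came from GENCODE 29.

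The rule for named genes took AEBP1, read-through genes with an unadjusted p under 0.05 in edgeR or an adjusted p under 0.05 by another tool, the 8 with the highest mean CPM, the 6 with at least 200 counts and the largest ratio within a labelled group, the 4 with the highest share of their locus, those nearest above and below the count minimum, their partners, and up to 2 genes per machinery list. The members and lists were chosen with earlier results of these data known.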

Additional observations from a re-analysis of the deposited data

How the results depend on the processing

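The count of read-through genes called was 2 with a replicate block (against 0.0123% of all rows), 3 with no filter on low counts (0.0138%), 3 by DESeq2 (0.0277%), 2 by limma-voom (0.0123%), 0 at an adjusted p under 0.01 and 0 without the libraries labelled replicate 3 in both groups, against 1 in the edgeR fit of all libraries. It ran between 0 and 2 when each library was left out in turn. No other row was called with the replicate block, with no filter or by limma-voom. Partner genes called were 2 by DESeq2, SENP3 and EIF4A1, and 0 under the other alternatives run. Locus sums called and machinery genes called were 0 under every alternative run for them. The difference in the SENP3-EIF4A1 share of its locus, 34.2 percentage points from counts, was 19.5 from FPKM and ran between 29.5 and 37.8 when each library was left out; the cause of the FPKM difference was not tested. The replicate numbers are not stated to pair libraries, and deviations of same-numbered libraries correlated at 0.185, 0.00273 and -0.129, so the block is reported here only; it added RAB4B-EGLN2 (edgeR adjusted p = 0.0169).

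Directions turned round only for read-through genes that were not called. Without the libraries labelled replicate 3 in both groups, the log2 fold change was 0.10 for RPL17-C18orf32 and 0.38 for BIVM-ERCC5, against -0.03 and -0.27 with all libraries. When each library was left out in turn it ran between -0.30 and 0.14 for ANKHD1-EIF4EBP3, -0.22 and 0.15 for RPL17-C18orf32, -3.24 and 0.61 for BIVM-ERCC5, -3.44 and 1.12 for JMJD7-PLA2G4B and -1.18 and 0.026 for FAM47E-STBD1. AEBP1 stayed below 0, between -0.57 and -0.07 with each library left out and at -0.83 (edgeR adjusted p = 0.378) without the replicates 3 of both groups. With 3 libraries per group the exact permutation test cannot go below 0.1. Leaving out replicate 3 of both groups and counting machinery genes under the alternatives were chosen after the data had been seen.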

Other observations

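Of the 24 other annotated genes with 0 counts in a library and at least 100 in another, GENCODE 29 tags at least 1 transcript of 21 as a read-through transcript. Most carry clone-based names, so the rule on paired symbols did not take them. With at least 100 counts in a library, 151 other genes had the tag and 13.9% of these were at 0 in another library, against 3 of 11858 genes without it (0.0253%). AC007192.1 had 3359, 1481 and 3190 counts in the libraries labelled AEBP1 siRNA, against 2, 0 and 2791 counts in those labelled scrambled siRNA. AC008878.3 had 0, 1397 and 0 counts in the libraries labelled AEBP1 siRNA, against 1860, 1984 and 0 counts in those labelled scrambled siRNA. These genes were picked after their values had been seen, and the difference between tagged and untagged genes is a description with no test.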
